A study of Sus scrofa with 5 samples.

Results

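Interferon epsilon (IFNE), the receptors of type I and type II interferon, and the kinases and the transcription factor that relay their signal were examined in porcine blastoids and in the porcine embryonic stem cells (pESCs) from which such blastoids are made. The 8 genes are IFNE, IFNAR1, IFNAR2, IFNGR1, IFNGR2, JAK1, TYK2 and STAT2, out of 30029 gene names in the count matrices. They were chosen by their known roles with earlier results of these same cells known. The levels of IFNE in cells gated on GABRP, TAC3, TP63 and POU5F1, and the levels of the receptors in cells split by ISG15, were the values behind that choice, so all of them are given as descriptions and no test was made on them.

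The blastoids were taken at day 6, after pESCs had formed clusters in 4FXY medium and then grown in iBlastoid medium, whose factors include IL-6 with its soluble receptor, LIF, activin A, BMP4 and bFGF. They were picked by hand, dissociated with trypsin and sequenced as 2 droplet libraries, replicates 1 and 2 of a single condition, so there is no untreated or control group. The pESCs were kept in 4FIXY medium on mitomycin-treated mouse embryonic fibroblasts and sequenced in bulk in 3 libraries, whose columns are named IVFP25, PA_4P7 and PAP25. Their stated origin is parthenogenetic blastocysts, while the name of 1 column begins with IVF. Nothing in the labels says whether the libraries of a group came from separate cultures, so the spread between them may be technical. Among pESCs it may also hold differences between lines or passages, since the column names differ in IVF or PA and in P25 or P7. What these parts of the names mean is not given.

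Type I interferons are secreted proteins that bind a receptor of 2 chains, IFNAR1 and IFNAR2. The kinases TYK2 and JAK1 sit on these chains and phosphorylate STAT2, which enters the nucleus with IRF9 and helps to switch on interferon-stimulated genes such as ISG15. Interferon gamma, the type II interferon, uses a separate receptor of IFNGR1 and IFNGR2 and acts through JAK1 and JAK2. IFNE is an unusual type I interferon, since it is known for constitutive expression in epithelium of the female reproductive tract rather than for induction by virus. In pigs, the trophoblast of the elongating conceptus is known to secrete interferon gamma and interferon delta.

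A cell was a barcode with at least 11223 UMIs (unique molecules counted) in library 1 or 9805 in library 2, which gave 7369 and 8175 cells with a median of 29728 and 27588 UMIs. Of these barcodes 9 were found in both libraries. The cells were put into 6 classes by raw UMIs: at least 10 of GABRP with at least 10 of TAC3, at least 10 of GABRP with fewer of TAC3, at least 3 of TP63, at least 5 of POU5F1, more than 1 of the GABRP, TP63 and POU5F1 limits, and no limit. GABRP encodes a GABA receptor subunit and TAC3 the neurokinin B precursor, TP63 is a transcription factor of stratified epithelium, and POU5F1 a transcription factor of pluripotent cells. The classes are ranges of these genes and not cell types. The summed level of 4 pluripotency markers was 564 and 687 CPM in the POU5F1 class, of which 320 and 371 was POU5F1, which sets the class. It was 24.4 and 35.0 in the class with GABRP and TAC3. In that class 6 trophectoderm markers summed to 21889 and 21520 CPM against 8994 and 8557 in all cells, nearly all of it KRT8 (11062 and 10739) and KRT18 (10574 and 10552). GATA3 was at 190 and 176 against 132 and 124, while GATA2 was at 36.3 and 26.5 against 63.9 and 61.3, TFAP2C at 25.9 and 26.5 against 40.8 and 40.1, and CDX2 at 1.91 and 0.285 against 0.870 and 0.947. The 5 amnion markers summed to 1950 and 1994 against 582 and 520, but 1403 and 1440 of that was GABRP, which sets the class. Of the other amnion markers VTCN1 was at 92.1 and 85.7 against 13.0 and 10.6, ISL1 at 115 and 132 against 57.5 and 44.6, and TFAP2A at 327 and 328 against 288 and 264. No name is given to the class. Here CPM is the UMIs of a gene in the summed cells of a group, per 1000000 UMIs of all genes in those cells. Barcodes with 10 to 100 UMIs stood for empty droplets. They numbered 118122 and 165131 and held 1639823 and 2344239 UMIs in all. Their CPM gives the make-up of free RNA and not its amount in a cell, which was not estimated. In empty droplets GABRP was at 151 and 156 CPM against 214 and 193 in all cells. ISG15 was at 151 and 135 against 117 and 119, and TP63 at 49.4 and 33.7 against 83.6 and 67.3. TAC3 was at 46.3 and 26.0 against 53.0 and 36.6, and POU5F1 at 54.9 and 97.3 against 63.3 and 95.9. How many cells passed a limit through free RNA was not tested.

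In susScr11, IFNE lies at chr1:201219848-201228361 on the plus strand and its coding sequence at 201223599 to 201224180 is a single stretch of 582 bases inside the first of 2 exons of the longer transcript model. No other annotated gene overlaps it. IFNAR2 (chr13:196765915-196852640), IL10RB, IFNAR1 (chr13:196925731-196951398) and IFNGR2 (chr13:197007303-197035604) stand in this order on the plus strand within 269690 bases. IFNGR1 lies at chr1:27037151-27061095 and JAK1 at chr6:147320288-147567188, both on the plus strand, and TYK2 at chr2:69157774-69183555 and STAT2 at chr5:21733030-21748960, both on the minus strand. STAT2 shares 952 bases with IL23A on the other strand. JAK1 shares 259 bases with RAVER2 and IFNAR2 28868 bases with LOC110256370, and how the counting treated strand is not given in the sources used here.

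The 250 bases before the start of 5 genes are shown for the genes on which the ISG15 comparison turns: the gene that set it (ISG15), IRF9 and STAT2 as parts of 1 complex, the receptor chain IFNAR1, and IFNE. The sequences were read from the Sscrofa11.1 genome of RefSeq and are written 5′ to 3′ on the strand of the gene, with any match to the core of the interferon-stimulated response element (GAAA, 2 bases of any kind, GAAA) or to TTCNNNGAA (the gamma-activated site) in capitals.
ISG15 promoter, chr6:63362951-63363200, plus strand: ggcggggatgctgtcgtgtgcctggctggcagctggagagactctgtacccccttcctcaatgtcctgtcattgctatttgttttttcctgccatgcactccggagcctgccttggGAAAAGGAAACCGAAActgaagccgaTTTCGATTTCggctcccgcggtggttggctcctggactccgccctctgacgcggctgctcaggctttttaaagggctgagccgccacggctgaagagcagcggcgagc
IRF9 promoter, chr7:75139642-75139891, minus strand: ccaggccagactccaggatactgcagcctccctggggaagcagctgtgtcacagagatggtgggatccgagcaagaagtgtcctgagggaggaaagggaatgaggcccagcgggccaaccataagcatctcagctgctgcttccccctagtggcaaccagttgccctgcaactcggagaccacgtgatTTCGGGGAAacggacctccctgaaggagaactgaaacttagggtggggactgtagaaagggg
STAT2 promoter, chr5:21748961-21749210, minus strand: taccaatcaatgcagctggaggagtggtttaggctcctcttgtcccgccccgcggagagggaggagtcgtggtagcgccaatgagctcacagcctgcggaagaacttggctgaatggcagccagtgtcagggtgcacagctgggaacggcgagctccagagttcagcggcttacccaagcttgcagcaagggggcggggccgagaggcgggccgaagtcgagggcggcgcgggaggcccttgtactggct
IFNAR1 promoter, chr13:196925481-196925730, plus strand: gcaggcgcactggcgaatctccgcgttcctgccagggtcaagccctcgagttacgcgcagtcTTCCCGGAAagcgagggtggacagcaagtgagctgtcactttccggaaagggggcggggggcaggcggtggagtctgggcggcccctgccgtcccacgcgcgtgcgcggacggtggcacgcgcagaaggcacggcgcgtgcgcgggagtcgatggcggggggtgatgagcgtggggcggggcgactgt
IFNE promoter, chr1:201219598-201219847, plus strand: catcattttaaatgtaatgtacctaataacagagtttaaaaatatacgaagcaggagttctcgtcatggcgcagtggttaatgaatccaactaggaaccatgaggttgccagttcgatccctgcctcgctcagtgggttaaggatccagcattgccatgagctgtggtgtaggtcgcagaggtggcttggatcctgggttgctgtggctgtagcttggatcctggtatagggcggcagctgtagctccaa
Both strands were searched from 250 bases before to 50 bases after the start of the transcript with the highest FPKM. ISG15 held 3 matches to the response element core, of which the first 2 overlap and the third reads on the other strand. IRF9 held 1 match to TTCNNNGAA, and so did IFNAR1 and IFNGR1. STAT2, IFNE, IFNAR2, IFNGR2, JAK1 and TYK2 held neither motif in this window. For IFNE the start is that of the longer transcript model, at 201219848, while its coding sequence begins at 201223599. Bases just before the coding sequence were not searched. Over 19528 promoters of coding genes, 3.48% held the response element core and 6.86% held TTCNNNGAA. GCCNNNGGC, the core of the TFAP2 site, was in 27.5% of them and, among the 8 genes, in IFNAR2. A match is letters in a window and not a site shown to be bound.

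IFNE was the only interferon ligand matched by symbol with more than 3 UMIs in the blastoid cells. It had 649 UMIs in library 1 and 579 in library 2, which is 2.55 CPM (95% exact Poisson interval 2.36 to 2.76) and 2.19 (2.01 to 2.37). Of 33 other ligand genes matched by symbol, 28 had no UMI in either library, and 0 UMIs allow at most 0.0118 and 0.0113 CPM by the limit of 3 counts. The 5 with a UMI were IFN-DELTA-1 with 3 over both libraries, IFNG with 3, and IFN-DELTA-2, IFN-DELTA-6 and IFN-DELTA-7 with 2 each. IFNB1, IFNK and all 19 genes of the alpha and omega families were at 0. The delta, alpha and omega genes are close copies of each other whose reads the counting could drop or split. Interferons carrying only a LOC name were not included, and no gene with an interferon lambda symbol was among those matched, so lambda ligands were not assessed. Intervals and limits here cover counting error only.

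Within the blastoids IFNE was highest in cells with GABRP. In the class with GABRP and TAC3 it was at 8.70 CPM (6.25 to 11.8) in the 176 cells of library 1 and at 7.69 (5.07 to 11.2) in the 136 cells of library 2. Cells past more than 1 limit followed with 6.22 (5.54 to 6.97) and 6.10 (5.38 to 6.88), and cells with GABRP and little TAC3 with 3.48 (2.63 to 4.50) and 3.60 (2.72 to 4.67). The TP63 class stood at 2.40 and 2.29, cells past no limit at 1.14 and 0.925, and the POU5F1 class at 0.649 (0.407 to 0.983) and 0.839 (0.607 to 1.13). The means of the first and the last class, 8.20 ± 0.719 and 0.744 ± 0.134 (SD, n = 2), were furthest apart.

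The 2 libraries did not overlap between any neighbours in this order, but the counting intervals overlapped in both libraries for the first and second class, for cells with GABRP and little TAC3 and the TP63 class, and for the last 2. Empty droplets held 1 IFNE UMI in each library, 0.610 (0.0154 to 3.40) and 0.427 (0.0108 to 2.38) CPM. The POU5F1 class, cells past no limit and the TP63 class all lay at or within these wide intervals. Such a comparison sets the make-up of RNA side by side and does not show how much IFNE in a cell was free RNA. The order among these classes is given as values only. The 3 classes above them had levels beyond the interval in both libraries, for cells with GABRP and little TAC3 only just in library 1.

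**Figure D1:**
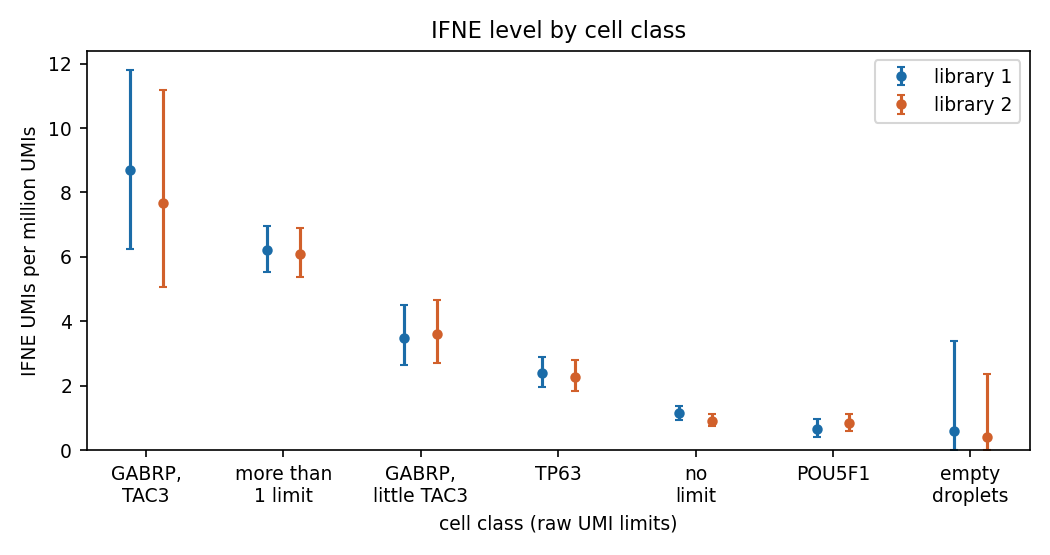
IFNE level in CPM (y axis) in each cell class and in empty droplets (x axis) for library 1 and library 2. Points are the summed counts of a class and bars the 95% exact Poisson interval. Both libraries fall from 8.70 and 7.69 in cells with GABRP and TAC3 to 0.649 and 0.839 in cells with POU5F1, next to the empty droplets.

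Cells with at least 10 GABRP UMIs, whatever their other limits, were 22.1% of cells in library 1 and 18.6% in library 2 and carried 26.3% and 22.3% of all UMIs. They held 61.2% and 59.2% of the IFNE UMIs (60.2% ± 1.37, SD, n = 2). The share rests on the limit: it was 71.4% and 42.7% at a limit of 5 and 20 GABRP UMIs. On thinned cells, which pass 10 GABRP UMIs less often, it was 26.5%. Their level was 5.94 CPM (5.37 to 6.55) against 1.35 (1.19 to 1.52) in all other cells of library 1, and 5.80 (5.20 to 6.45) against 1.15 (1.00 to 1.30) in library 2, a fold of 4.41 and 5.06. At the limit itself the level hardly moved. Cells with 10 to 11 GABRP UMIs had 3.53 and 3.30 CPM of IFNE, and cells with 8 to 9 had 3.27 and 3.98.

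Most of the class past more than 1 limit carried GABRP together with TP63, a split made after these values were seen. Cells past both of these limits (889 and 792) were 12.1% and 9.69% of cells and held 45.1% and 43.7% of the IFNE UMIs, at 7.16 CPM (6.36 to 8.03) and 7.01 (6.17 to 7.93). GABRP without TP63 gave 4.01 (3.28 to 4.86) and 3.90 (3.14 to 4.80), TP63 without GABRP 2.31 (1.90 to 2.79) and 2.14 (1.72 to 2.64), and neither 1.03 and 0.898. Of these 4 groups the level stood highest where both genes were high, and their intervals did not overlap within a library. That split leaves TAC3 out. GABRP without TP63 takes in the class with GABRP and TAC3, at 8.70 and 7.69, and cells with little TAC3, at 3.48 and 3.60. The highest doublet scores fell in 13.4% and 15.3% of the cells with both genes against 3.28% and 4.53% of those with neither, and without them the level with both genes was 8.11 and 7.76. Where POU5F1 passed its limit as well, which only 50 and 51 cells did, at a median of 122918 and 84078 UMIs, it was 3.10 (1.84 to 4.90) and 2.03 (0.928 to 3.85).

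Since deep cells show more genes, every cell was also thinned to 9805 UMIs. An IFNE UMI was then found in 2.42% and 1.97% of all cells, in 5.68% (2.76 to 10.2, exact binomial) and 8.09% (4.11 to 14.0) of cells with GABRP and TAC3, in 7.58% (6.01 to 9.41) and 6.41% (4.90 to 8.21) of cells past more than 1 limit, and in 0.921% (0.371 to 1.89) and 0.632% (0.273 to 1.24) of the POU5F1 class. At equal depth the 2 classes with the most IFNE thus changed places in library 1, and cells past no limit, at 0.916% and 0.821%, were level with the POU5F1 class there. Without thinning the share over all cells was 7.02% and 5.65%, with at most 5 and 7 UMIs in 1 cell. Detection was higher in bins of more thinned GABRP, from 1.04% and 0.672% of cells without GABRP to 8.04% and 6.98% at 6 to 10 GABRP UMIs. It was 7.67% and 9.58% at 11 to 20, and at 21 or more it was 1.96% (1 of 51 cells, 0.0496 to 10.4) and 7.27% (4 of 55, 2.02 to 17.6), so the order did not hold at the top.

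In the bins up to 20 GABRP UMIs the share with IFNE was larger in cells with a TP63 UMI than in cells without. At 3 to 5 GABRP UMIs the shares were 5.69% (3.75 to 8.23) against 1.75% (0.645 to 3.77) in library 1 and 4.13% (2.46 to 6.45) against 1.42% (0.461 to 3.27) in library 2. At 11 to 20 they were 9.39% (5.57 to 14.6) against 5.98% (3.02 to 10.4) and 13.2% (8.44 to 19.3) against 5.99% (2.91 to 10.7). In each of these bins the intervals overlapped, and the order was the same in both libraries.

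**Figure D2:**
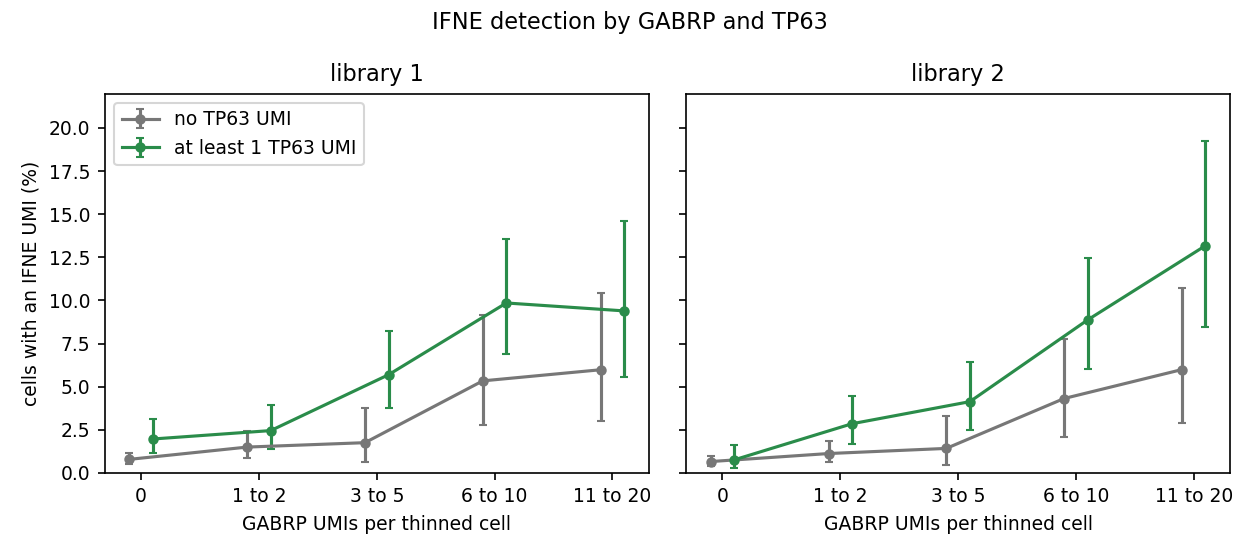
Percent of cells with an IFNE UMI (y axis) by GABRP UMIs per cell after thinning each cell to 9805 UMIs (x axis), for cells without a TP63 UMI and with at least 1, in each library. Points are shares and bars the 95% exact binomial interval. Shares are lowest without GABRP and higher from 6 UMIs on, where the line with TP63 in library 1 goes from 9.85% to 9.39%, and the line with TP63 lies above the other in every bin shown. The bin of 21 or more GABRP UMIs, with 13 to 42 cells a point, is not shown.

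The genes most like IFNE over cells were ranked by the Pearson correlation of log-scaled thinned counts, taking the lower of the 2 libraries, over 16359 genes. The first 8 were LOC110257598 (a long non-coding RNA), ADCY2 (an adenylyl cyclase), LURAP1L, PDE3A (a cyclic nucleotide phosphodiesterase), PLXNA2 (a semaphorin receptor), EPB41L3 (a membrane skeleton protein), GABRP and SNAP91 (a clathrin adaptor). Their correlations ran from 0.139 to 0.192, which is weak in counts this sparse. They are given as a description over cells of the same libraries. LOC110257598 was at 121 and 96.3 CPM in cells past the GABRP and TP63 limits and at 7.43 and 6.54 in cells past neither. TAC3 ranked 22nd and TP63 85th. Among receptor and relay genes the highest correlation with IFNE in either library was 0.0270, for IFNAR1 in library 1.

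The receptor chains also differed between the classes, with a different order for each. IFNAR1, the chain that TYK2 binds, was highest with GABRP and TAC3 at 21.2 and 15.7 CPM and lowest with POU5F1 at 5.13 and 4.64, a 3.77-fold difference of the means. The library values of the first did not overlap those of the next class, though in library 2 the counting intervals did (11.8 to 20.4 and 10.6 to 12.7). The middle classes lay between 9.28 and 11.9. Empty droplets were at 7.93 (4.22 to 13.6) and 5.12 (2.65 to 8.94). These intervals hold the POU5F1 class in both libraries and, in library 1, every class but the first. IFNAR2, the chain that JAK1 binds, was at 42.7 and 38.7 with GABRP and TAC3 and at 18.9 and 17.4 with POU5F1, 2.24-fold apart. Cells past no limit came second at 36.2 and 28.3, though those of them with fewer than 10 COL3A1 UMIs were at 28.2 and 23.9. The TP63 class, from which COL3A1 cells were not taken out, was at 29.0 and 26.9. The lowest neighbours, cells with GABRP and little TAC3 (26.7 and 18.7) and the POU5F1 class, overlapped. Empty droplets were at 14.0 and 15.8. Their intervals hold the POU5F1 class in both libraries and cells with GABRP and little TAC3 in library 2. The 4 mesenchyme markers summed to 361 and 252 CPM in the class with GABRP and TAC3 against 341 and 209 in all cells. The sum was 112 and 57.1 with little TAC3 and 63.3 and 49.8 with POU5F1. TWIST1, the 1 marker that is no collagen, went the other way. It was at 13.4 and 5.12 with TAC3, 17.9 and 9.06 with little TAC3 and 14.0 and 9.03 with POU5F1. The part of these markers in the IFNAR2 order was not tested.

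IFNGR2, the signalling chain of the interferon gamma receptor, differed most. It was at 8.92 and 8.26 CPM with GABRP and TAC3, at 6.16 and 4.63 with GABRP and little TAC3, at 4.13 and 4.44 with TP63, and at 0.679 (0.430 to 1.02) and 0.429 (0.269 to 0.650) with POU5F1, 15.5-fold between the ends. The library values of neighbouring classes did not overlap at any step, but the counting intervals did at most of them. With and without TAC3 they were 6.43 to 12.1 and 5.02 to 7.48 in library 1, and 5.53 to 11.9 and 3.62 to 5.83 in library 2. Further down, each step as far as cells past no limit had overlapping intervals in at least 1 library. Empty droplets were at 1.83 (0.377 to 5.35) and 0.853 (0.103 to 3.08) on 3 and 2 UMIs. The POU5F1 class and cells past no limit lay within these intervals in both libraries, and the TP63 class and cells past more than 1 limit in library 1. The lower part of this order is given as values only. In bulk pESCs, described further on, IFNGR2 was the lowest of the members.

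IFNGR1, the ligand-binding chain for interferon gamma, had another order. Cells past no limit were highest at 13.5 and 8.39 CPM and the POU5F1 class lowest at 3.36 and 3.02. The other classes lay between 3.07 and 7.22 and overlapped from one to the next. Empty droplets were at 6.10 (2.92 to 11.2) and 3.41 (1.47 to 6.72), intervals that hold every class but the first in both libraries.

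The relay genes varied least. JAK1 ran from 24.2 and 22.5 with GABRP and TAC3 to 16.0 and 15.6 with POU5F1 (1.48-fold), STAT2 from 8.49 and 7.69 to 6.02 and 6.09 (1.34-fold), and TYK2 from 9.13 and 9.97 to 7.43 and 7.37 (1.29-fold), with the same classes at both ends. Most neighbouring classes overlapped. Empty droplets were at 6.71 and 5.97 for STAT2, at 8.54 and 5.12 for TYK2 and at 13.4 and 7.25 for JAK1, the first 2 near the cells. Small differences between classes in STAT2 and TYK2 are given as values only.

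**Figure D3:**
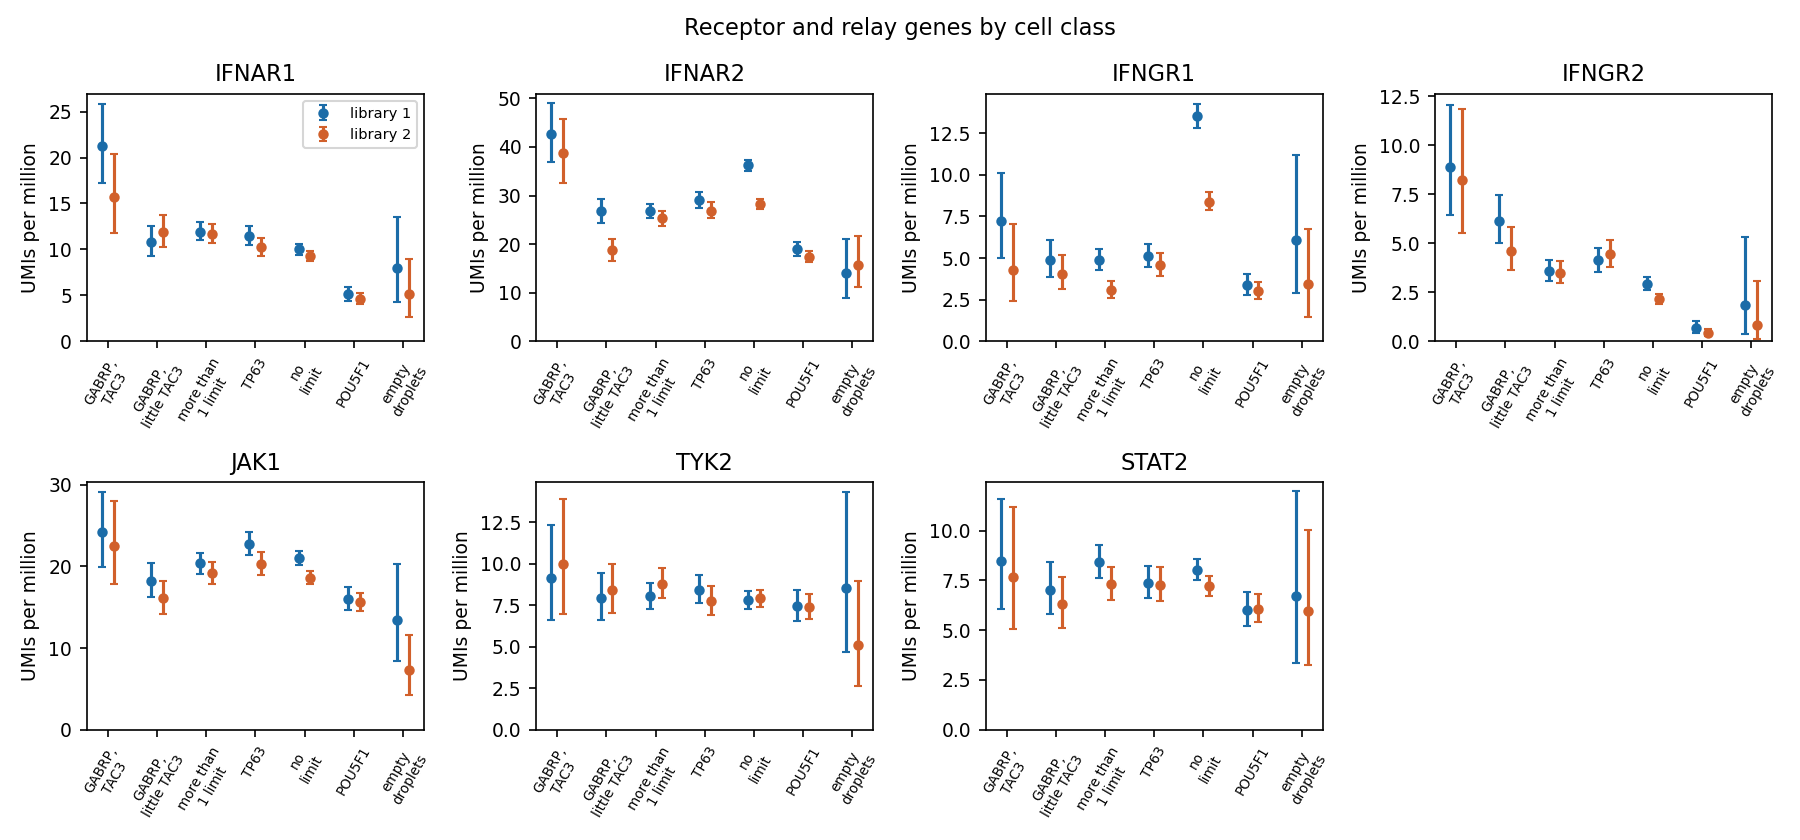
Level in CPM (y axis, a scale of its own in each panel) of the 4 receptor chains and 3 relay genes in the 6 cell classes and in empty droplets (x axis) for both libraries, with 95% exact Poisson intervals. The POU5F1 class is the lowest class for every gene, IFNGR2 runs from 8.92 and 8.26 down to 0.679 and 0.429, IFNGR1 is highest in cells past no limit, and TYK2 and STAT2 are nearly level.

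A large part of the IFNGR1 UMIs was in few cells. Of the 1442 and 953 UMIs in cells past no limit, 923 and 485 were in 505 and 379 cells with at least 10 UMIs of COL3A1, a fibrillar collagen chain, and 519 and 468 in the 3096 and 3760 others. Over all classes, single cells reached 32 UMIs in library 1 and 49 in library 2, and the 71 and 33 cells with at least 5 held 34.4% and 24.2% of all IFNGR1 UMIs. Of these cells 93.0% and 90.9% had at least 10 COL3A1 UMIs. The genes most like IFNGR1 over cells were DCN, LUM, IGFBP7, COL1A1, COL3A1, NID2 and COL1A2, with correlations from 0.276 to 0.429. These are proteins of the extracellular matrix, and the look at them was taken after the values were seen.

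Cells with at least 10 COL3A1 UMIs numbered 646 (8.77%) in library 1 and 436 (5.33%) in library 2, and 78.2% and 86.9% of them were past no other limit. IFNGR1 was at 47.6 and 51.9 CPM in them against 4.39 and 3.52 in all other cells, 10.9- and 14.8-fold. IFNAR2 was at 68.7 and 75.3 against 26.5 and 22.8, a fold of 2.60 and 3.31. IFNGR2 was 1.75- and 2.13-fold and IFNAR1 1.66- and 1.97-fold as high, while JAK1, TYK2 and STAT2 stood between 1.07- and 1.57-fold. IFNE went the other way, at 1.62 and 1.38 against 2.65 and 2.22. Where no other limit was passed, COL3A1 cells held 6 IFNE UMIs in 505 cells and 1 in 379 cells, 0.464 and 0.119 CPM.

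Library 1 had 341 CPM summed over 4 mesenchyme markers and library 2 had 209, and the levels of IFNGR1 over all cells moved with them, 8.38 against 5.63. The 4 hypoblast markers, highest in cells past no limit at 67.1 and 36.4, also differed, 37.1 against 21.7. The part of either in that difference was not tested. Without COL3A1 cells the IFNGR1 of the 2 libraries stood at 4.39 and 3.52.

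**Figure D4:**
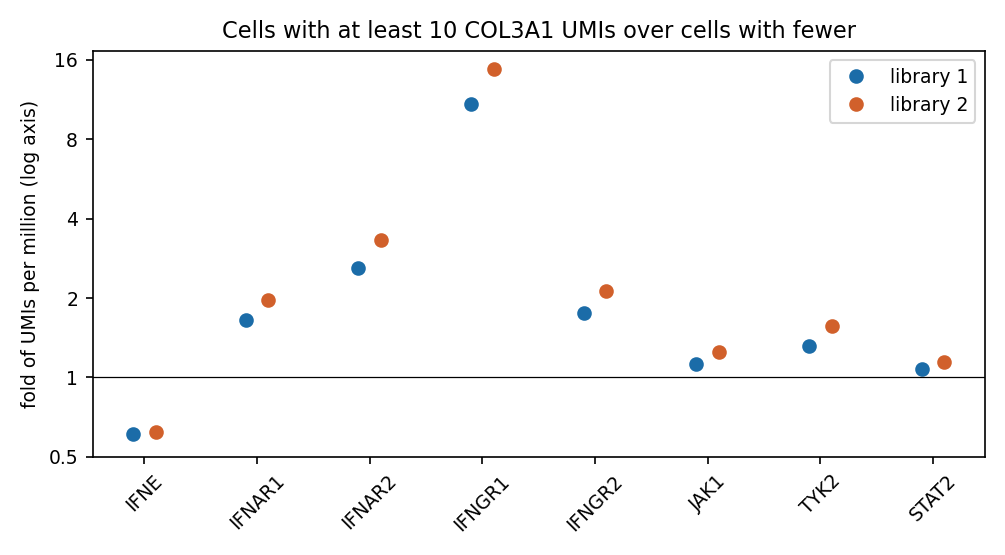
Level of each of the 8 genes in cells with at least 10 COL3A1 UMIs divided by its level in cells with fewer (y axis, log scale), by gene (x axis) and library. IFNGR1 is 10.9- and 14.8-fold higher and IFNAR2 2.60- and 3.31-fold, JAK1 and STAT2 lie closest to 1, TYK2 is at 1.31 and 1.57, and IFNE lies below 1 in both libraries.

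ISG15, a ubiquitin-like protein that interferon induces, was unevenly spread. It had no UMI in 66.9% and 68.4% of cells, while 578 (7.84%) and 585 (7.16%) cells had at least 10 and held 88.6% and 89.0% of its UMIs. Such cells were in every class, from 2.37% (1.41 to 3.72, exact binomial) and 3.24% (2.34 to 4.37) of the POU5F1 class to 13.9% (11.8 to 16.2) and 13.5% (11.3 to 15.9) of cells past more than 1 limit. The TP63 class stood at 9.98% and 9.50%, and the class with GABRP and TAC3, highest for IFNE, at 3.41% (1.26 to 7.27) and 6.62% (3.07 to 12.2). These shares use raw UMIs, and the class past more than 1 limit and the POU5F1 class have the highest medians, 38199 and 39922 and 41120 and 37452 UMIs.

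The share of ISG15 cells did not differ detectably between cells with and without IFNE. After thinning, 13 of 178 cells with an IFNE UMI in library 1 had at least 10 raw ISG15 UMIs (7.30%, 3.95 to 12.2) against 7.86% of cells without, and 12 of 161 in library 2 (7.45%, 3.91 to 12.7) against 7.15%. Among cells with GABRP the shares were 7.77% against 11.1% and 8.70% against 11.9%, with overlapping intervals. At this depth a difference in either direction could be missed. IFNE itself was at 2.74 CPM in cells with ISG15 and 2.53 in cells with fewer in library 1, and at 2.32 and 2.17 in library 2. With the class make-up of the other cells applied to the ISG15 cells the fold was below 1, at 0.787 and 0.893. These folds have no interval and rest on few IFNE UMIs of ISG15 cells. In library 1 those were 3 in each GABRP class, 7 in the TP63 class and 0 in the POU5F1 class. In the class past more than 1 limit IFNE was at 4.71 (3.45 to 6.28) against 6.60 (5.82 to 7.47) and at 3.30 (2.09 to 4.96) against 6.64 (5.82 to 7.54). This class is mixed. Its cells past all of the GABRP, TP63 and POU5F1 limits had IFNE at 3.10 and 2.03. Of them 48% in library 1 and 9.80% in library 2 were ISG15 cells, and their part was not tested. IFNE was also lower with ISG15 in the TP63 class, at 1.48 (0.595 to 3.05) against 2.51 and at 1.79 (0.720 to 3.69) against 2.34. The ISG15 cells there held 7 IFNE UMIs in each library. It was higher in cells past no limit, at 1.28 (0.612 to 2.35) against 1.13 and at 1.10 (0.474 to 2.16) against 0.913, on 10 and 8 UMIs. In both of these classes the intervals hold the level of the other cells, so no direction can be read from them. The other 3 classes differed in direction between the libraries.

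None of the 7 receptor and relay genes was at least 1.5-fold higher in both libraries in cells with at least 10 ISG15 UMIs, where 0.623% of 16360 genes with at least 100 UMIs in each library were. The 8 members all passed that minimum. IFNAR1 was at 10.3 against 10.2 CPM in library 1 and at 9.55 against 9.10 in library 2. IFNAR2 was at 28.2 against 30.6 and at 23.1 against 25.3, and JAK1 at 19.0 against 20.6 and at 16.7 against 18.4. TYK2 and IFNGR2 had opposite signs in the 2 libraries, with mean log2 ratios of 0.01 ± 0.23 and 0.16 ± 0.31 (SD, n = 2). Over all genes counted the median log2 ratio was -0.09.

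STAT2 had the highest ratio of the members in both libraries. Its level was 8.94 against 7.52 CPM in library 1 and 9.55 against 6.73 in library 2, log2 ratios of 0.25 and 0.51 (0.38 ± 0.18). The mean ratio was 0.75 ± 0.31 where counts and limits were applied to thinned cells, which then pass 10 ISG15 UMIs less often. At full depth it was 0.32 and 0.50 at a limit of 5 and 20 ISG15 UMIs. Depth and limit cannot be told apart in the thinned value. The STAT2 ratio was above 0 in both libraries in 3 of the 6 classes and below 0 in both in none. With the class make-up of the other cells applied to the ISG15 cells the ratios were 0.23 and 0.49. In the TP63 class STAT2 was at 9.52 (6.94 to 12.7) against 7.11 and at 10.8 (7.75 to 14.5) against 6.89. The ratio of its partner IRF9 was far higher. IRF9 was at 62.8 against 4.61 and at 71.3 against 4.18 (15.2-fold over both libraries).

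IFNGR1 was the 1 member at least 1.5-fold lower in both libraries, against 2.88% of the 16360 genes. It was at 5.05 against 8.75 CPM in library 1 and at 3.57 against 5.82 in library 2, log2 ratios of -0.79 and -0.70. The 4 mesenchyme markers summed to 233 and 111 in ISG15 cells against 353 and 218 in the others, and 4 hypoblast markers to 16.8 and 11.4 against 39.4 and 22.6. Of COL3A1 cells, 8.82% in library 1 and 4.13% in library 2 were ISG15 cells, against 7.75% and 7.33% of the others. The part of these markers in the result was not tested. With the class make-up of the other cells applied to the ISG15 cells the IFNGR1 ratios were -0.98 and -0.69. Within the classes, with a small constant added to each count, the IFNGR1 ratios were below 0 in both libraries in 4 of the 6 classes. They were above 0 in both in none. By level alone IFNGR1 was also lower in both with GABRP and TAC3, at 0 against 7.58 and 3.40 against 4.35 CPM. The ISG15 cells of that class held 0 and 1 UMIs of it. Without COL3A1 cells the log2 ratios were -0.48 and -0.21, no longer past 1.5-fold. The same omission brought IFNAR2 to 0.09 and -0.01 and left STAT2 at 0.40 and 0.52.

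**Figure D5:**
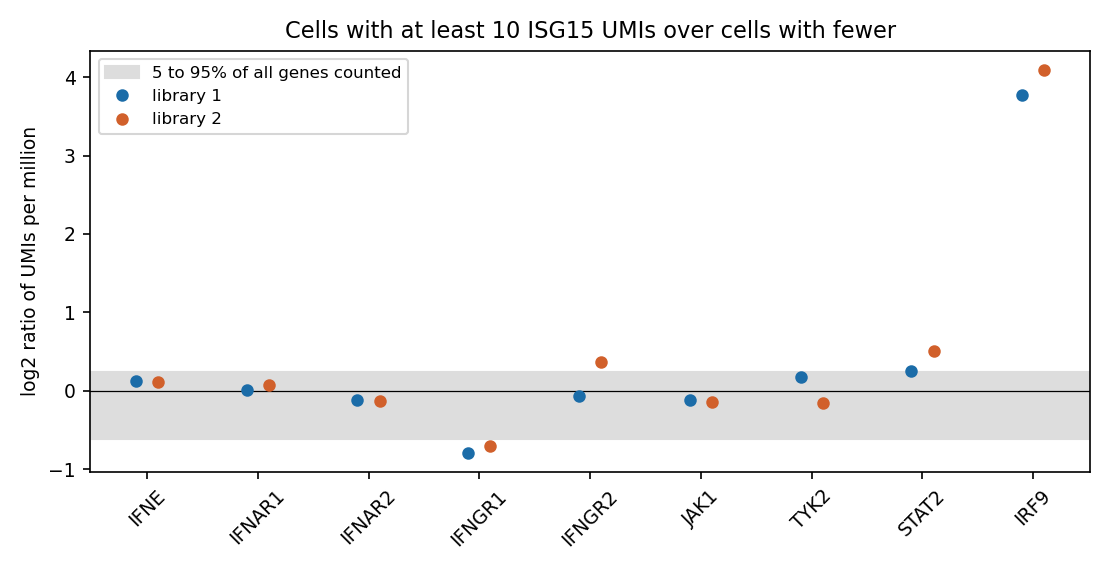
Log2 ratio of CPM in cells with at least 10 ISG15 UMIs over cells with fewer (y axis) for the 8 members and for IRF9 (x axis), 1 point per library; the grey band spans 5 to 95% of the mean ratios of all 16360 genes. STAT2 lies at 0.25 and 0.51, IFNGR1 at -0.79 and -0.70, and IRF9 far above the band.

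Some other genes of the pathway were higher with ISG15. Of 19 listed pathway genes with enough counts (ISG15 left out), 6 were at least 1.5-fold higher in both libraries and none lower, with a median log2 ratio of 0.02. They were USP18 (a protease that removes ISG15, 16.1-fold), IRF9, IFIH1 (an RNA sensor, 8.92-fold), DDX58 (an RNA sensor, 7.87-fold), IRF7 (a transcription factor, 5.81-fold) and IRF2 (1.60-fold). The receptor genes IL10RB and IFNLR1, which form the interferon lambda receptor, had mean log2 ratios of 0.21 and -0.19, JAK2 -0.12 and the inhibitor SOCS1 -0.36.

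Of 18 listed response genes with enough counts, 17 were at least 1.5-fold higher and none lower, with a median log2 ratio of 4.24. The 6 highest were IFI44L, IFI44, PARP14, MX2, MX1 and PARP9, with IFI44L at 73.6 against 0.668 CPM in library 1 and 83.2 against 0.618 in library 2. MX1, a GTPase that blocks virus replication, was at 37.4 against 0.835 and at 44.8 against 0.874. OASL did not reach the fold. These lists were chosen with ISG15 cells in view, and their counts are no independent evidence of an interferon response. Immune markers were few in the cells: PTPRC had 14 and 8 UMIs in all, AIF1 made up 5.15 and 4.51 of 7.12 and 6.19 CPM summed over 8 markers, and the sum was 7.51 and 9.06 in ISG15 cells against 7.07 and 5.92 in the others. Their part in these results was not tested.

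Both chains of the type I receptor were rarely seen in the same thinned cell. IFNAR1 and IFNAR2 were found together in 2.82% and 2.37% of cells and neither in 69.4% and 73.6%, which at 9805 UMIs a cell says nothing of cells lacking the receptor. The share with both chains was 3.11% (1.86 to 4.88) in ISG15 cells against 2.80% in library 1 and 1.71% (0.823 to 3.12) against 2.42% in library 2. Among cells with an IFNE UMI, 3 of 178 had both chains in library 1 (1.69%, 0.349 to 4.85) and 1 of 161 in library 2 (0.621%, 0.0157 to 3.41). By class the share was 6.25% (3.16 to 10.9) and 2.94% (0.807 to 7.36) with GABRP and TAC3 and 0.921% (0.371 to 1.89) and 1.11% (0.606 to 1.85) with POU5F1. Both chains of the interferon gamma receptor were found in 0.394% and 0.257% of all cells, too few to compare groups.

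Near the ISG15 limit cells were few and the counting intervals wide. Cells with 10 to 11 ISG15 UMIs (31 and 36) had 9.56 (5.09 to 16.3) and 9.97 (5.45 to 16.7) CPM of STAT2. Cells with 8 to 9 (47 and 36) had 10.9 (6.83 to 16.5) and 7.78 (3.88 to 13.9). IFNGR1 was at 6.62 (3.03 to 12.6) and 4.99 (2.00 to 10.3) just inside the limit. Just below, it was at 4.95 (2.38 to 9.11) and 4.24 (1.56 to 9.23), the reverse of the order between the whole groups. The intervals on either side overlapped for both genes in both libraries.

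In pESCs the levels can be set side by side between genes, since FPKM is scaled by transcript length and by library size, and were summed here over the transcripts of a gene. In bulk, fewer cells that express a gene and less RNA per cell cannot be told apart. POU5F1, the check on the labelled cell type, was at 639, 506 and 432 FPKM in IVFP25, PA_4P7 and PAP25, the order kept below. IFNE was at 0.121, 0.124 and 0.183 FPKM (0.143 ± 0.0348, SD, n = 3), and most of it was assigned to the longer transcript model rather than to the coding stretch alone. GABRP, high in the blastoid cells with IFNE, was at 48.2, 51.9 and 21.3 FPKM in the same pESC libraries and TAC3 at 64.3, 14.6 and 46.1, while TP63 was at 0.161 ± 0.0796.

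TYK2 was the highest member at 5.49, 6.23 and 6.17 FPKM (5.96 ± 0.414), followed by IFNAR2 at 3.35, 4.28 and 5.14 (4.26 ± 0.900) and STAT2 at 4.36, 3.38 and 3.58 (3.78 ± 0.516). IFNAR2 and STAT2 overlapped each other, and with only the highest transcript of each library counted, TYK2 had a mean of 2.45, below both. IFNAR1 was at 1.79, 1.70 and 1.93 FPKM (1.81 ± 0.115), below IFNAR2 in every library and 2.35-fold lower in the mean. JAK1 stood at 1.35, 1.00 and 1.43 (1.26 ± 0.228) and IFNGR1 at 1.03, 0.904 and 1.48 (1.14 ± 0.305), which overlapped. IFNGR2 was at 0.0182 FPKM in IVFP25, listed at 0 in PA_4P7 and at 0.0577 in PAP25, the lowest of the 8. The median of all genes above 0 was 2.07 FPKM, so that TYK2, IFNAR2 and STAT2 lay above it and the other 5 below.

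Of the 33 other ligand genes, 10 were listed at 0 in all 3 pESC columns and none reached a mean of 1 FPKM. The highest mean was that of IFN-DELTA-2, at 0.0447, 0.109 and 0.459 FPKM in the 3 libraries. IFNB1, IFNG and IFNK were listed at 0. ISG15 was at 5.11, 3.92 and 3.57 FPKM and IRF9 at 1.15, 1.16 and 2.12. MX1 spread from 0.219 in PA_4P7 to 7.61 in IVFP25, while IFIT1 was at 0.0227 in PA_4P7 and listed at 0 in the other 2.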

How the data were processed

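Sequencing reads of 2 blastoid libraries were aligned to susScr11 and counted by the authors with Cell Ranger 7.1.0. The deposited matrices give UMI counts as whole numbers for all barcodes, empty droplets included. For the 3 pESC libraries the authors trimmed reads with Trim Galore 0.6.4, mapped them with HISAT2 2.2.1 and computed FPKM per RefSeq transcript with StringTie 2.2.1. Their depth is unknown, and the 3 columns could be tied to the pESC group but not to single samples. The 8 members and all gene lists were chosen with earlier results of these data known. The genes named beside the members were the class genes, the ligands with most UMIs, the listed pathway and response genes with the largest ratios, and the 8 genes most alike to IFNE. The pathway list was used without 1 gene, which is not reported here.

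Cells were taken at the UMI limits given above with no other filter and held 254038630 and 264987746 UMIs, and the classes follow raw counts, so deep cells pass a limit more easily. Counts were summed per class and library and divided by all UMIs of the sum, with 95% exact Poisson intervals. Shares of thinned cells carry exact Clopper-Pearson intervals. Ratios by ISG15 were computed for every gene, with code checked on simulated counts. For the log2 ratios over all cells and within classes a small constant was added to each summed count, while levels in CPM have none. Doublets were kept. Scrublet (scanpy 1.11.5) marked 1 and 0 cells by its own threshold, so the highest scores up to 0.8% per 1000 cells (434 and 535) were removed in an alternative. All 34 member transcripts had an entry in the Sscrofa11.1 annotation. Python 3.11.15, numpy 2.4.6 and scipy 1.17.1 were used.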

Additional observations from a re-analysis of the deposited data

How the results depend on the processing

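No paired analysis was possible because no result comes from a test, and each ratio was already taken within a library. The share of IFNE UMIs in cells with GABRP was 60.2% and became 58.4% over every barcode with at least 1000 UMIs, 58.7% without doublets, 26.5% where counts and limits were applied to thinned cells (which then pass 10 GABRP UMIs less often), and 71.4% and 42.7% at a limit of 5 and 20 GABRP UMIs. Without either library it was 59.2% to 61.2%. The fold of IFNE over other cells was 4.73 and became 5.54 on thinned cells, and 4.41 to 5.06 without either library. The STAT2 log2 ratio by ISG15 was 0.38 and became 0.75 on thinned cells (which then pass 10 ISG15 UMIs less often). It was 0.32 and 0.50 at a limit of 5 and 20 ISG15 UMIs, and 0.25 to 0.51 without either library. The count of receptor and relay genes at least 1.5-fold higher with ISG15 was 0 under every alternative run, limits of 5 and 20 ISG15 UMIs included. At 15000 UMIs a cell instead of 9805, IFNE was found in 9.62% of cells with GABRP and TAC3, 5.00% with little TAC3, 3.22% with TP63, 1.28% with POU5F1, 9.28% past more than 1 limit and 1.54% past none. Cells with fewer UMIs than that were left out, among them 14 and 13 with GABRP and TAC3 and 251 and 516 past no limit. In pESCs, taking the highest transcript of each library in place of the sum lowered TYK2 from 5.96 to 2.45 FPKM, which put it below IFNAR2 and STAT2, and moved IFNAR1 and JAK1 by more than their SD. The split by GABRP and TP63 without doublets and the ISG15 ratios without COL3A1 cells were chosen after seeing the data. The latter took IFNGR1 from -0.74 to -0.35. Counts this low limit what can be said of single cells.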

Other observations

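Other genes of the interferon pathway spanned a wide range in the pESC libraries. The phosphatase PTPN11 was at 33.0, 40.8 and 35.4 FPKM in IVFP25, PA_4P7 and PAP25 and the transcription factor IRF3 at 15.8, 10.6 and 18.4. The sensors of nucleic acid differed among themselves. DDX58 was at 1.55, 1.60 and 1.09, while IFIH1 was listed at 0 in IVFP25 and at 0.0267 and 0.0275 in the others, TLR3 was above 0 only in IVFP25 at 0.0184, and TMEM173 was listed at 0 in all 3. Of the listed response genes OAS1, RSAD2, CXCL10 and DDX60 were listed at 0 in all 3 libraries, while HERC5, a ligase that attaches ISG15 to proteins, was at 38.4, 95.6 and 33.7. SOCS1 and SOCS3, inhibitors of JAK kinases, were at 6.44, 4.89 and 7.70 and at 6.09, 9.28 and 7.82.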
